A study of Mus musculus with 26 samples.

Results

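AMPA and NMDA receptors are the ion channels that carry most fast excitation in the brain, and the messenger RNAs (mRNAs) of their subunits are described here in mouse entorhinal cortex (EC) and hippocampus (HC). The members were the genes Gria1 to Gria4, Grin1, Grin2a to Grin2d and Grin3a, chosen by name. All probe sets with 1 of these as their only symbol were taken. On the array, 932 probe sets with several symbols were not assigned to a gene. Of the 10 genes, 9 had a probe set, out of 18193 genes with a probe set of 1 symbol, and these 9 had 21 probe sets. No probe set had Grin1 as its only symbol in the annotation used, so the obligatory NMDA receptor subunit was not analysed here. All 21 probe sets lay above the 30th percentile of mean level over the 45037 probe sets tested, and 18 lay above the 50th.

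An AMPA receptor is a tetramer of the subunits GluA1 to GluA4 (genes Gria1 to Gria4) and opens when glutamate binds. GluA2, once its transcript is edited, keeps calcium out of the channel, and GluA1 is known for its part in synaptic potentiation in the hippocampus. An NMDA receptor holds GluN1 (Grin1) and subunits of the GluN2 (Grin2a to Grin2d) or GluN3 family. It needs glutamate, a co-agonist and depolarisation to open, lets calcium in, and starts many forms of synaptic plasticity.

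The arrays came from aged mice, most of them examined 4 weeks after a lentivirus had been delivered to the EC, and 6 arrays came from sham-lesioned mice, whose treatment label names no virus. In each region, 4 arrays came from mice with an amyloid precursor protein transgene given the growth factor BDNF (APP BDNF) and 4 from such mice given green fluorescent protein (APP GFP). Another 2 came from non-transgenic mice given GFP (nonTg GFP) and 3 from non-transgenic mice with a sham lesion (nonTg sham), making 26 arrays. The sources used here do not name the APP transgene, its promoter, the strain or the exact age, and the HC itself was not injected. Labels call the replicates biological and do not tie an EC array to a HC array of 1 animal. Arrays are named by group and replicate number, and a level is a log2 value on a scale common to all arrays.

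Array medians lay between 5.51 and 5.58, and 2 arrays of a region correlated at 0.984 to 0.997 over all probe sets. Of 7 cortical layer genes, 5 were called higher in EC and 1 lower, and of 5 dentate granule cell genes 4 were lower and 1 higher, with neither list's mean overlapping between regions. The 4 hippocampal pyramidal cell genes split, with 2 higher (Wfs1 and Ccn3) and 2 lower (Fibcd1 and Spink8) in EC. EC APP BDNF 3 and EC nonTg GFP 2 had low means over the oligodendrocyte markers (7.76 and 8.03). EC APP BDNF 3 also had a mean of 6.13 over all probe sets, against 6.08 to 6.09 on every other array. HC nonTg sham 1 had a mean of 9.36 over the choroid plexus markers. Calls that changed without these 3 arrays, a setting chosen after seeing the data, are given with the regional results. Xist RNA, made from the inactive X of females, was high on 18 arrays and low on 8, all 8 of them transgenic. Its class differed between regions in 6 of 13 pairs with the same group and number. The nonTg pairs, high in both regions, could not differ.

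Promoter windows of 250 bases before to 50 after the gene start (RefSeq, GRCm38.p6, mouse) were at hand for 5 of the 10 members, and 2 are shown. Gria4 is shown because each of its 3 probe sets separated the regions without overlap, and Gria2 because its brightest probe set read nearly the same level in both regions. The Gria4 window lies at chr9:4796185-4796484 and the Gria2 window at chr3:80802786-80803085, both read on the minus strand. Capitals mark each match, on either strand, of the motifs searched: the GC box GGGCGG, the core of the NRF1 site CGCANGCG, the cyclic AMP element TGACGTCA and its shorter form TGACG, the TATA box TATAAA and the E box CANNTG.
Gria4: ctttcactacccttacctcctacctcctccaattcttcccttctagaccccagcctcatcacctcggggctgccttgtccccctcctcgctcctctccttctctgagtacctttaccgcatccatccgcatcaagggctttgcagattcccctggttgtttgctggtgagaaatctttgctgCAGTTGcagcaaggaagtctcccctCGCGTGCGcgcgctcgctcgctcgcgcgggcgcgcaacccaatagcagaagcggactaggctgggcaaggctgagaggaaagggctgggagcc
Gria2: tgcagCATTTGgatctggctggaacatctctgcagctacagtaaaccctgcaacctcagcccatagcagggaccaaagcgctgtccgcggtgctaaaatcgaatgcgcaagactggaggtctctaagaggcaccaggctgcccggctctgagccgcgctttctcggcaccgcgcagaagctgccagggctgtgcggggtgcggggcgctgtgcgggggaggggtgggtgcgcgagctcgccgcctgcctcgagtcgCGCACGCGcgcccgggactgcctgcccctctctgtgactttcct
Each window held 1 E box and 1 NRF1 core and no other match. In Gria4 they start at bases 183 and 208 of 300, before the gene start, and in Gria2 at bases 6 and 257, so that the Gria2 core lies just inside the transcribed part. An E box was found in 72.3% of 32544 mouse windows of this length and an NRF1 core in 8.2%, and these matches are letters in a window and not shown to be bound. G and C made up 59.7% of the Gria4 window and 65.7% of the Gria2 window, against a median of 53.0% over all windows.

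The first question was how the subunits differ between EC and HC. Averaged over the 4 groups, limma called 11 of 21 member probe sets at an adjusted p under 0.05, where 39.3% of all probe sets were called. Of these, 9 were higher and 2 lower in EC, against 19.2% and 20.2% of all probe sets, and they belonged to 6 genes. By the brightest probe set alone, 4 of 9 member genes were called, where 44.1% of 18193 genes were, so the members were near the share of all genes. The 3 probe sets of Gria4 and both of Gria3 were higher in EC, both of Gria1 were lower, and Grin3a was higher by 2 of its 3. All 13 EC arrays lay on 1 side of all 13 HC arrays for 4 member probe sets, 3 of Gria4 and 1 of Gria1, where 6.67% of all probe sets separated in this way. In tissue of this kind, fewer cells that express a gene and less mRNA per cell cannot be told apart.

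**Figure D1:**
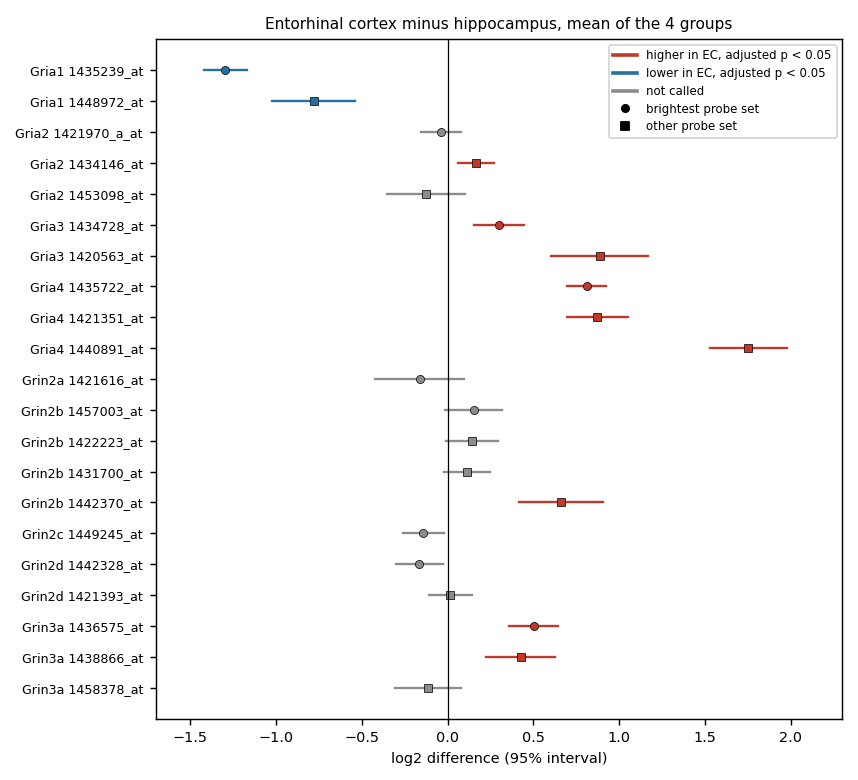
Log2 difference EC minus HC, averaged over the 4 groups, for each of the 21 member probe sets. Points are limma estimates, circles for the brightest probe set of a gene and squares for the others, and bars are 95% intervals from 26 arrays. Red and blue mark the 9 probe sets called higher and the 2 called lower in EC, among them all of Gria4 (0.81 to 1.75) and Gria1 (-1.29 and -0.78).

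Gria1 encodes GluA1. Its brightest probe set read 10.27, 10.63, 10.63 and 10.69 in EC APP BDNF, 10.52, 10.91, 10.86 and 10.66 in EC APP GFP, 10.58 and 10.81 in EC nonTg GFP, and 10.85, 10.83 and 10.69 in EC nonTg sham. In HC it read 11.97, 11.97, 12.05 and 11.95 in APP BDNF, 11.74, 12.17, 12.11 and 11.91 in APP GFP, 12.07 and 11.83 in nonTg GFP, and 12.07, 12.004 and 12.06 in nonTg sham. All 13 EC arrays lay below all 13 HC arrays. Within a region the groups overlapped, except that the highest EC APP BDNF value lay just under the lowest EC nonTg sham value. The fitted difference was -1.29 ± 0.06 (SE, adjusted p = 1.1e-13), an EC level of 0.408 times that in HC. The other probe set, 1448972_at, read 9.80 to 10.60 in EC (median 10.08) against 10.22 to 11.68 in HC (median 10.82), a difference of -0.78 ± 0.12 (adjusted p = 1.0e-05).

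Gria4 encodes GluA4, a subunit known for fast gating and prominent in parvalbumin interneurons. Its brightest probe set read 10.07, 10.08, 9.89 and 9.96 in EC APP BDNF, 9.92, 9.78, 9.81 and 9.61 in EC APP GFP, 9.86 and 9.41 in EC nonTg GFP, and 9.69, 9.47 and 9.68 in EC nonTg sham. In HC it read 8.83, 8.98, 9.07 and 8.99 in APP BDNF, 9.03, 8.73, 8.82 and 8.90 in APP GFP, 8.89 and 8.96 in nonTg GFP, and 8.88, 9.07 and 9.10 in nonTg sham. All EC arrays lay above all HC arrays, the reverse of Gria1. The difference was 0.81 ± 0.05 (adjusted p = 4.7e-11), a 1.76-fold higher level in EC. Probe set 1440891_at read 7.25 to 7.85 in EC against 5.16 to 6.93 in HC, with a difference of 1.75 ± 0.11, or 3.37-fold. Probe set 1421351_at read 5.66 to 6.69 in EC against 4.96 to 5.57 in HC, with a difference of 0.87 ± 0.09. The 3 probe sets thus ran in 1 direction and differed in size.

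Over the 26 arrays, the brightest probe sets of Gria1 and Gria4 correlated at r = -0.955. The regions form 2 clusters of arrays here, so this value mostly restates the regional difference. After the group means were taken out, r was -0.504 over the 26 arrays, which share their normalisation. In the same way Gria1 ran with Gria2 at 0.683 and with Grin2b at 0.591, and among the 36 pairs of members these were the 2 highest values.

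**Figure D2:**
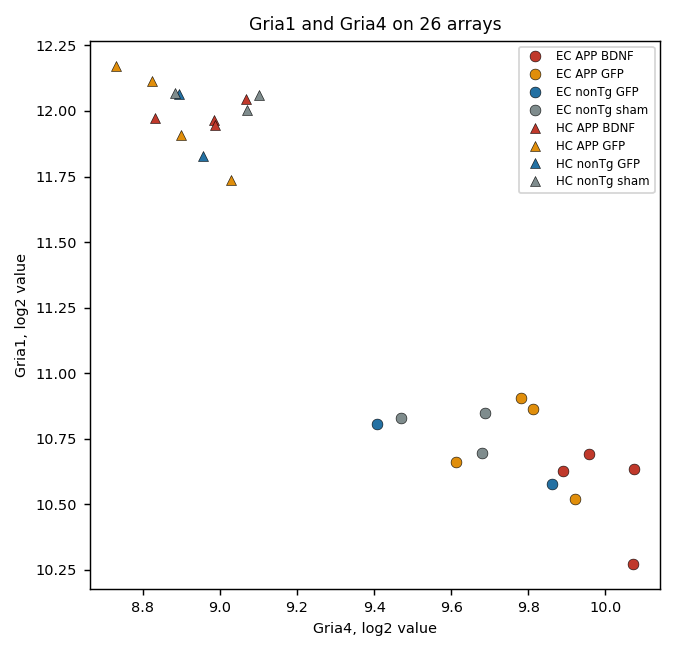
Log2 value of the brightest Gria1 probe set (vertical) against that of Gria4 (horizontal) on the 26 arrays, with colours for genotype and treatment, circles for EC and triangles for HC. The 13 EC arrays lie at Gria4 9.41 to 10.08 and Gria1 10.27 to 10.91, and the 13 HC arrays at 8.73 to 9.10 and 11.74 to 12.17.

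Gria2 encodes GluA2, the subunit that sets calcium permeability. Its brightest probe set read 11.89, 11.96, 12.19 and 12.05 in EC APP BDNF, 11.82, 12.06, 12.07 and 11.99 in EC APP GFP, 11.94 and 12.11 in EC nonTg GFP, and 12.10, 12.002 and 12.06 in EC nonTg sham. In HC it ranged from 11.74 to 12.24, with a median of 12.07, and each HC group overlapped the EC groups. The difference was -0.04 ± 0.06, with a 95% interval of -0.16 to 0.08, and was not called. A second probe set, 1434146_at, was called higher in EC at 0.16 ± 0.05 (adjusted p = 0.013). Its EC sham arrays read 11.22, 11.20 and 11.14 against 10.75, 10.76 and 10.63 in HC sham, a difference of 0.48 ± 0.10, while the other 3 groups gave 0.01 to 0.15. The call was lost without the 3 arrays named above (0.14, adjusted p = 0.0629) and without HC nonTg GFP 1 (0.12, adjusted p = 0.083). The third, 1453098_at, was not called (-0.13 ± 0.11), and no 2 Gria2 probe sets correlated above 0.191 over the 26 arrays.

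Gria3 encodes GluA3 and lies on the X chromosome. The brightest probe set read 10.59, 10.58, 10.40 and 10.97 in EC APP BDNF, 10.88, 10.97, 11.06 and 10.75 in EC APP GFP, 10.80 and 11.37 in EC nonTg GFP, and 11.09, 11.32 and 10.99 in EC nonTg sham. In HC it read 10.68, 10.75, 10.76 and 10.71 in APP BDNF, 10.82, 10.72, 10.51 and 10.50 in APP GFP, 10.62 and 10.89 in nonTg GFP, and 10.48, 10.54 and 10.30 in nonTg sham. It was higher in EC by 0.30 ± 0.07 over the 4 groups (adjusted p = 0.0015), and 7 of 13 EC arrays lay above every HC array. By group the difference was -0.09 ± 0.12 in APP BDNF, 0.27 ± 0.12 in APP GFP, 0.33 ± 0.17 in nonTg GFP and 0.69 ± 0.14 in nonTg sham, of which limma called the last alone. Probe set 1420563_at read 8.71 to 10.04 in EC against 7.97 to 9.20 in HC, with a difference of 0.89 ± 0.14 (adjusted p = 1.5e-05). Its means were higher in EC in each group, at 9.31 against 8.56 in APP BDNF and 9.67 against 8.54 in APP GFP. In nonTg GFP they were 9.47 against 8.88, and in nonTg sham 9.62 against 8.53. After the group means were taken out, the 2 Gria3 probe sets correlated at 0.018. With Xist as a covariate the differences of the 2 probe sets were 0.30 ± 0.07 and 0.88 ± 0.13, both called.

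**Figure D3:**
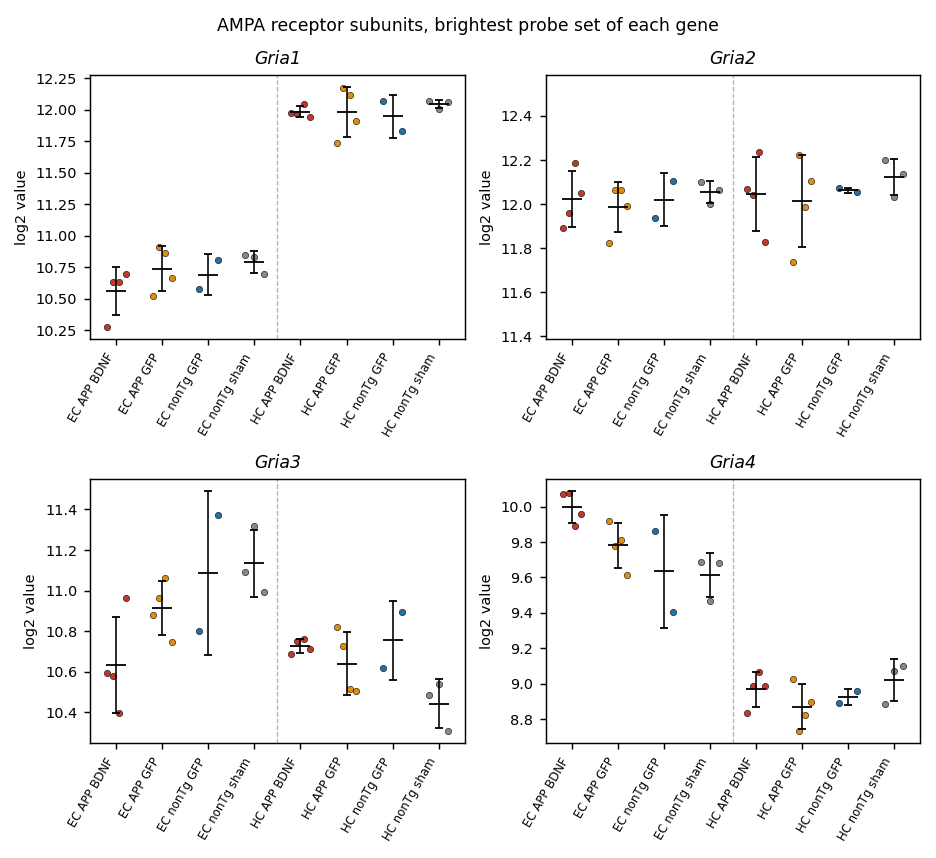
Log2 value of the brightest probe set of each AMPA receptor gene on each array, in the 8 groups, with EC groups left of the dashed line and HC groups right of it. Points are arrays and bars are mean ± SD (n = 4, 4, 2 and 3 per region), and each vertical axis has its own range. Gria1 and Gria4 separate the regions in opposite directions, while Gria2 lies between 11.74 and 12.24 on every array.

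Among NMDA receptor genes, Grin3a, whose subunit GluN3A lowers calcium entry and is known from immature and some adult cortical neurons, had the clearest regional difference. Its brightest probe set read 8.39, 8.92, 8.64 and 8.84 in EC APP BDNF, 8.73, 9.07, 8.70 and 8.73 in EC APP GFP, 8.44 and 8.86 in EC nonTg GFP, and 8.78, 8.62 and 8.80 in EC nonTg sham. In HC it read 8.24, 8.33, 8.43 and 8.26 in APP BDNF, 8.44, 7.91, 8.13 and 8.16 in APP GFP, 8.07 and 8.25 in nonTg GFP, and 8.18, 8.25 and 8.31 in nonTg sham. Of the 13 EC arrays, 12 lay above every HC array, and the exception was EC APP BDNF 1. The difference was 0.50 ± 0.07 (adjusted p = 3e-06), a 1.42-fold higher level in EC. Probe set 1438866_at gave 0.43 ± 0.10 (adjusted p = 0.0012), and the dim 1458378_at gave -0.11 ± 0.09 and was not called.

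Grin2b encodes GluN2B, the slow-decaying subunit that dominates before maturity and stays in the forebrain. Its brightest probe set read 9.20, 9.69, 9.44 and 9.64 in EC APP BDNF, 9.90, 9.68, 9.73 and 9.70 in EC APP GFP, 9.76 and 10.19 in EC nonTg GFP, and 9.78, 9.85 and 9.88 in EC nonTg sham. The 13 HC arrays read 9.27 to 10.06 with a median of 9.57, within the EC range of 9.20 to 10.19. The difference was 0.15 ± 0.08 (95% interval -0.02 to 0.32) and was not called. Of its other probe sets, 1442370_at read 8.54 to 9.73 in EC against 7.88 to 9.01 in HC and was called higher by 0.66 ± 0.12 (adjusted p = 9.4e-05). The remaining pair gave 0.14 ± 0.07 and 0.11 ± 0.06 and were not called, so the regional call for Grin2b rests on 1 of its 4 probe sets.

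Grin2a encodes GluN2A, the main adult partner of GluN1 in the forebrain, and was read by 1 dim probe set. It ranged from 4.62 to 5.78 in EC (median 5.58), against 5.30 to 6.39 in HC (median 5.61), with a difference of -0.16 ± 0.13 that was not called. The value of 4.62 came from EC APP BDNF 3, and the next lowest in EC was 5.38. Grin2c encodes GluN2C, known in adult forebrain mainly from astrocytes and some interneurons, and its probe set ranged from 7.11 to 7.88 in EC, against 7.38 to 7.82 in HC. The difference was -0.14 ± 0.06 (adjusted p = 0.061) and was not called over the 4 groups. Within APP GFP it was called lower in EC: EC arrays read 7.59, 7.33, 7.56 and 7.11, against 7.70, 7.74, 7.82 and 7.60 in HC (-0.32 ± 0.10, adjusted p = 0.029). That call was lost without EC APP GFP 2 (-0.295, adjusted p = 0.0755), EC APP GFP 4 (-0.220, 0.134), HC APP GFP 2 (-0.308, 0.0625) or HC APP GFP 3 (-0.283, 0.0850). Grin2d encodes GluN2D, an interneuron subunit, and its brightest probe set differed by -0.16 ± 0.07 (adjusted p = 0.052), its other by 0.02 ± 0.06. Neither was called, and 6 of 13 EC arrays lay below every HC array with the brightest probe set.

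**Figure D4:**
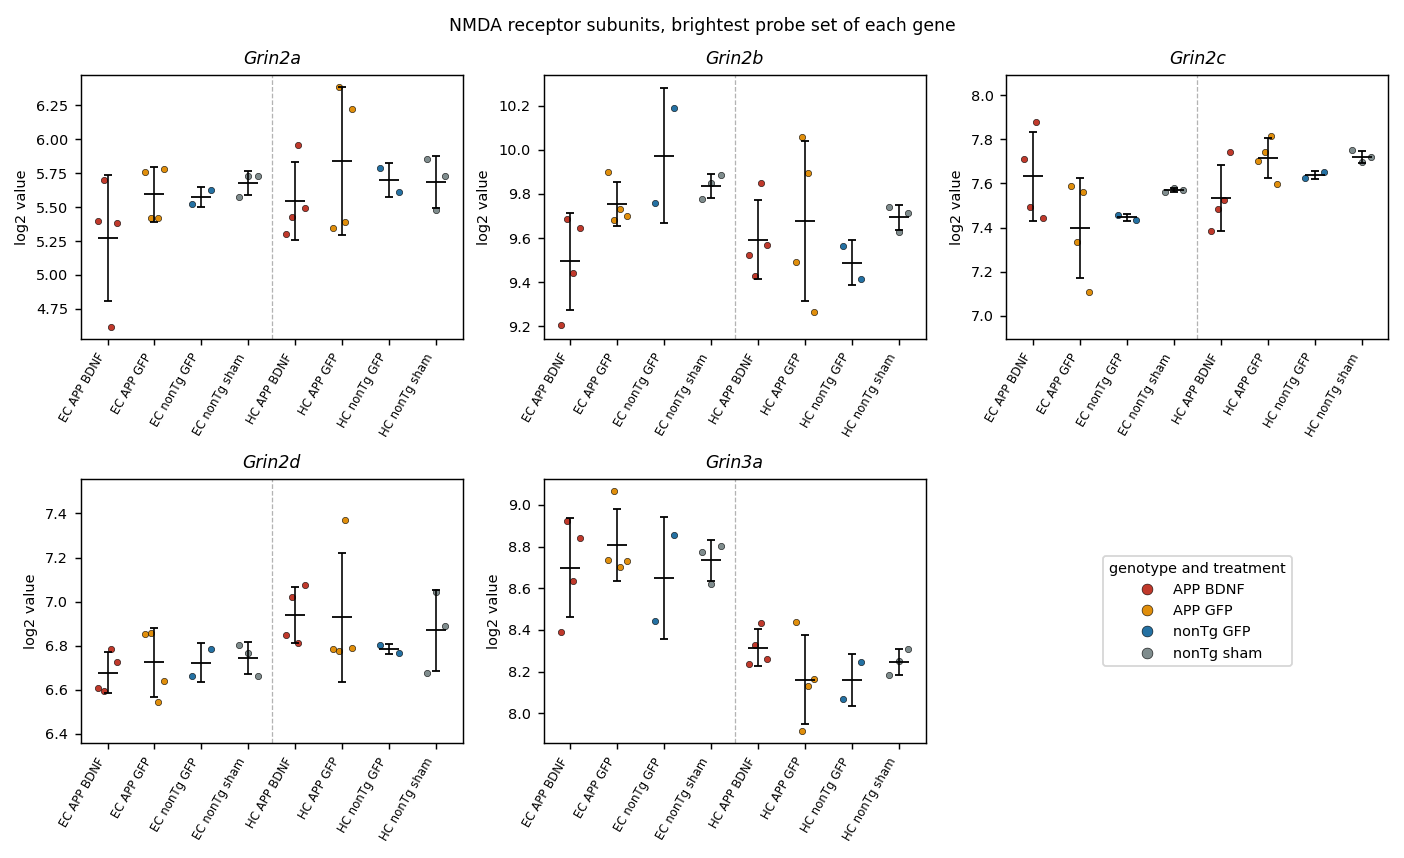
Log2 value of the brightest probe set of each NMDA receptor gene on each array, in the 8 groups, with EC groups left of the dashed line and HC groups right of it. Points are arrays and bars are mean ± SD (n = 4, 4, 2 and 3 per region), and each vertical axis has its own range. Grin3a is higher in EC, with 12 of 13 EC arrays above every HC array, and in the other panels the regions overlap more.

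The regional comparison was also made within each genotype and treatment. Limma called 7 of 21 member probe sets in APP BDNF (20.7% of all probe sets), 10 in APP GFP (19.3%), 5 in nonTg GFP (6.39%) and 9 in nonTg sham (18.0%). Gria1 and Gria4 were called by their brightest probe sets in all 4 groups. Gria1 differed by -1.43 ± 0.10, -1.25 ± 0.10, -1.25 ± 0.15 and -1.25 ± 0.12 in that order, and Gria4 by 1.03 ± 0.09, 0.91 ± 0.09, 0.71 ± 0.13 and 0.59 ± 0.11. The nonTg GFP calls rest on 2 arrays a region: without EC nonTg GFP 1, 2 member probe sets were called there and the Gria4 difference was 0.48 (adjusted p = 0.0649). Without HC nonTg GFP 2, 3 were called. In APP GFP, 6 were called without HC APP GFP 3. Without the 3 arrays that stand apart, 12 were called over the 4 groups, 6 in APP BDNF, 10 in APP GFP and 10 in nonTg sham. The share of all probe sets called was not counted. That setting leaves EC nonTg GFP 1 alone in its group, so no count is given for nonTg GFP. The 4-group average then also rests on this array for its group. Lost then, beside 1434146_at of Gria2, was 1420563_at of Gria3 in APP BDNF (0.67 ± 0.26, adjusted p = 0.0792). Gained over the 4 groups were 1431700_at of Grin2b (0.11 ± 0.04, adjusted p = 0.0371) and the brightest Grin2d probe set (-0.21 ± 0.07, adjusted p = 0.0292), and 1431700_at was also gained in nonTg sham (0.33 ± 0.08, adjusted p = 0.0088).

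The order of the 8 group means was taken for the brightest probe set of each gene. For Gria4 and Grin3a the 4 EC means were the 4 highest, and for Gria1 and Grin2d the 4 HC means were. In the order of the Gria1 means, neighbouring groups overlapped except HC nonTg GFP and EC nonTg sham, where the regions meet. For Gria4 the 1 gap was between EC nonTg sham and HC nonTg sham, and for Grin3a between EC nonTg GFP and HC APP BDNF. For Gria2 the highest and lowest group means lay 0.138 apart and no neighbours were separate. The same held for Gria3 (0.692 between HC nonTg sham, the lowest mean, and EC nonTg sham, the highest), Grin2a (0.563), Grin2b (0.485), Grin2c (0.324) and Grin2d (0.261). The other probe sets of Gria1 and Gria4 kept the regional order, as did 1438866_at of Grin3a. Those of Gria2 spread over 0.477 (1434146_at) and 0.737 (1453098_at). For 1420563_at of Gria3 and 1442370_at of Grin2b the 4 EC means were the 4 highest. For 1421393_at of Grin2d and 1458378_at of Grin3a the regions were mixed.

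Several cell type markers and a measure of RNA quality moved with region, and their part in these differences was not tested beyond the values given. The mean over 5 excitatory neuron markers was 10.26 to 10.45 in EC and 10.96 to 11.35 in HC, with 5 of 5 called lower in EC. All 7 oligodendrocyte markers with a probe set were lower in EC (7.76 to 9.57, against 10.01 to 10.74). The mean over 8 interneuron markers overlapped, at 10.08 to 10.41 in EC and 10.02 to 10.36 in HC, with 1 called higher and 2 lower. Of 5 thalamus markers 2 were called higher and 2 lower (6.77 to 7.52 in EC, 6.89 to 7.29 in HC). Of 4 endothelial markers 2 were higher and 0 lower, and of 5 choroid plexus markers 1 was higher and 2 were lower. Of 6 microglia markers and 4 antigen presentation markers 0 were called. Among 6 general neuron markers 1 was higher and 3 were lower (12.10 to 12.35 in EC, 12.41 to 12.56 in HC), and among 6 astrocyte markers 2 were higher and 1 lower (10.71 to 11.02 in EC, 10.81 to 11.16 in HC). The gap between the 3′ and 5′ control probe sets of Gapdh, which grows with RNA degradation, was 0.64 to 0.99 in EC and 0.25 to 0.52 in HC. The same gap for actin was 1.79 to 2.11 in EC and 1.43 to 1.74 in HC.

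With the Gapdh gap as a covariate, 6 member probe sets were called in the 4-group average. They were the brightest Gria1 (-0.998 ± 0.169), the 3 of Gria4 and 2 of Grin3a. Gria3 was then 0.34 ± 0.21 and 0.35 ± 0.39, 1448972_at of Gria1 -0.62 ± 0.35 and 1434146_at of Gria2 0.24 ± 0.15, all not called. The 1442370_at probe set of Grin2b turned to -0.03 ± 0.32. Because the Gapdh gap does not overlap between the regions, region and RNA quality cannot be told apart in this fit. The covariate also widened the standard errors, and the probe sets called with it are given as a description. The share of all probe sets called with it was not counted.

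The second question was whether BDNF delivery changed the subunits in transgenic mice. In EC, limma called 0 of 21 member probe sets (0% of all probe sets), and 1 passed an unadjusted p under 0.05, against 4.56% of all probe sets. That was the brightest Grin2b probe set, which read 9.20, 9.69, 9.44 and 9.64 with BDNF against 9.90, 9.68, 9.73 and 9.70 with GFP (-0.26 ± 0.12, adjusted p = 0.997). Without EC APP BDNF 3 and EC nonTg GFP 2, the 1 probe set at an unadjusted p under 0.05 in limma was instead the brightest of Gria4 (0.25 ± 0.09, adjusted p = 0.877), where 5.62% of all probe sets passed. Of the 21 probe sets, 16 had a fitted value below 0, with a median of -0.07 against 0.01 over all probe sets. Probe sets that share genes and arrays are not independent, and this count was not tested. The 95% intervals of the 21 differences lay within -0.83 to 0.68 on the log2 scale. For the brightest AMPA probe sets the values were -0.18 (interval -0.43 to 0.07) for Gria1, 0.04 (-0.15 to 0.22) for Gria2, -0.28 (-0.59 to 0.03) for Gria3 and 0.22 (-0.01 to 0.45) for Gria4. No member probe set separated the 4 BDNF arrays from the 4 GFP arrays, where 2.32% of all probe sets did.

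In HC, BDNF against GFP gave 0 member probe sets called (0% of all) and 1 at an unadjusted p under 0.05 (4.69% of all). It was Grin2c, which read 7.38, 7.48, 7.52 and 7.74 with BDNF against 7.70, 7.74, 7.82 and 7.60 with GFP (-0.18 ± 0.08, adjusted p = 0.988). In EC the same probe set was on the other side of 0, at 7.71, 7.49, 7.88 and 7.44 with BDNF against 7.59, 7.33, 7.56 and 7.11 with GFP (0.23 ± 0.12). The test of the difference between the 2 BDNF effects gave 0.42 ± 0.14 for Grin2c (95% interval 0.12 to 0.71) and was not called. Across that test 0 of 21 were called (0% of all) and 3 passed unadjusted (4.09% of all), the others being Gria3 (-0.37 ± 0.17) and 1421393_at of Grin2d (-0.36 ± 0.15). In HC 16 of 21 fitted values lay above 0, with a median of 0.05 against 0.007 over all probe sets, and this count was not tested either.

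**Figure D5:**
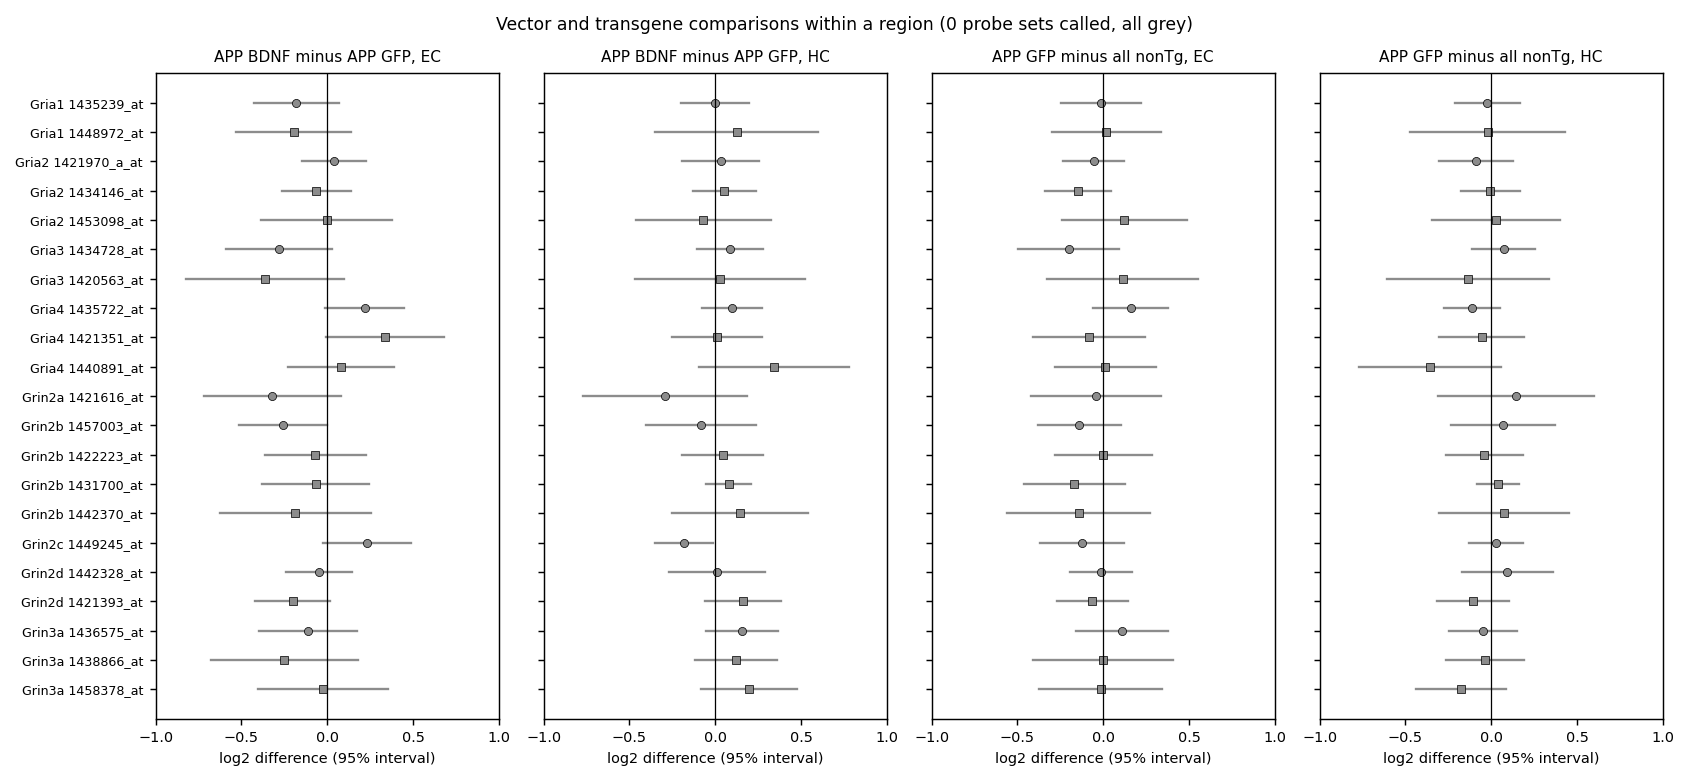
Log2 difference and 95% interval of each member probe set for APP BDNF minus APP GFP and for APP GFP minus all nonTg, in EC and in HC. Circles are the brightest probe set of a gene and squares the others, and grey marks that none was called by limma. The BDNF and transgene panels of a region share the APP GFP arrays.

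The third question was whether the transgene goes with a change in these genes. Against all 5 nonTg arrays, APP GFP arrays gave 0 of 21 member probe sets called in EC (0.00888% of all) and 0 at an unadjusted p under 0.05 (4.01% of all). In HC the counts were 0 (0.0155% of all) and 0 (4.25% of all). In each region 2 of the 4 APP GFP arrays had low Xist, while every nonTg array had high Xist. Of the 5 nonTg arrays, 3 were sham. Transgene, Xist class and vector are thus partly mixed in this contrast, and their parts were not tested. The largest fitted change was that of 1440891_at of Gria4 in HC, -0.36 ± 0.19, with arrays at 5.84, 5.39, 5.39 and 5.39 in APP GFP against 5.16 to 6.93 in nonTg. The brightest Gria4 probe set read 9.61 to 9.92 in EC APP GFP against 9.41 to 9.86 in EC nonTg (0.16 ± 0.10). In HC it read 8.73 to 9.03 in APP GFP against 8.88 to 9.10 in nonTg (-0.11 ± 0.08). The difference between these effects was 0.27 ± 0.13 (95% interval 0.01 to 0.53) and was not called. Of the 21, 0 were called in that test (0% of all), and Gria4 was the 1 at an unadjusted p under 0.05 (2.38% of all).

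Set against the 2 nonTg GFP arrays alone, APP GFP gave 0 called in EC (0.00444% of all), with 0 at an unadjusted p under 0.05 in limma (2.57% of all). In HC there were again 0 called (0.00444% of all), with 2 at an unadjusted p under 0.05 (4.16% of all). These were 1440891_at of Gria4 (-0.90 ± 0.25), which read 5.87 and 6.93 in nonTg GFP, and 1434146_at of Gria2 (-0.24 ± 0.10), which read 10.80, 10.98, 10.90 and 10.78 in APP GFP against 10.91 and 11.30 in nonTg GFP.

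APP BDNF arrays were also compared with all nonTg arrays, a contrast in which transgene and BDNF cannot be told apart. In EC, 0 of 21 were called (0.0111% of all), and 5 passed an unadjusted p under 0.05, where 9.85% of all probe sets did. The brightest Gria4 probe set read 10.07, 10.08, 9.89 and 9.96 in APP BDNF, all above the nonTg range of 9.41 to 9.86 (0.38 ± 0.10, adjusted p = 0.413). The brightest Grin2b probe set read 9.20 to 9.69, all below the nonTg range of 9.76 to 10.19 (-0.40 ± 0.11, adjusted p = 0.413). Gria3 read 10.40 to 10.97 in APP BDNF against 10.80 to 11.37 in nonTg, an overlap, with -0.48 ± 0.14 (adjusted p = 0.413). The other 2 were 1434146_at of Gria2 (-0.21 ± 0.09) and 1421393_at of Grin2d (-0.26 ± 0.10). Gria4, Grin2b and this Grin2d probe set were the 3 without overlap, where 3.39% of all probe sets had none. Without EC APP BDNF 3 and EC nonTg GFP 2, 4 of the 5 passed unadjusted (9.5% of all), and this Grin2d probe set gave -0.22 ± 0.10 and did not. Of the 4 APP BDNF arrays 2 had low Xist, and of the nonTg arrays 0. In HC the same contrast gave 0 called (0.00888% of all) and 0 at an unadjusted p under 0.05 in limma (5.74% of all).

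GFP lentivirus was compared with the sham lesion in nonTg mice, with 2 and 3 arrays. In EC 0 were called (0.00444% of all), with 0 at an unadjusted p under 0.05 in limma (2.85% of all). In HC 0 were called (0.0244% of all) and 6 passed unadjusted, where 8.64% of all probe sets did, and 10 of 21 had no overlap, where 27.1% of all had none. Probe set 1448972_at of Gria1 read 10.99 and 11.68 with GFP against 10.75, 10.22 and 10.60 with sham (0.81 ± 0.28). Probe set 1440891_at of Gria4 read 5.87 and 6.93 against 5.16, 5.79 and 5.56 (0.90 ± 0.26), and 1453098_at of Gria2 read 7.62 and 8.61 against 7.63, 7.46 and 7.04 (0.74 ± 0.23). In each of these the higher value came from array HC nonTg GFP 2, and the brightest probe sets of the same genes did not show it: 12.07 and 11.83 for Gria1, 8.89 and 8.96 for Gria4, 12.07 and 12.06 for Gria2. The other 3 were 1434146_at of Gria2 (0.40 ± 0.11), the brightest of Gria3 (0.31 ± 0.12) and 1422223_at of Grin2b (-0.31 ± 0.14). Without HC nonTg sham 1, 5 of these 6 passed unadjusted (8.75% of all), and 1422223_at of Grin2b gave -0.25 ± 0.15 and did not. The mean over 4 MHC class II markers, genes of antigen presentation, was 11.27 and 9.70 on GFP arrays 1 and 2, against 5.92 to 6.26 on the sham arrays, and its part in the result was not tested.

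Partners of the receptors were taken from 4 lists, of which 70 of 77 genes had a probe set, and the brightest probe set of each was used. In the regional comparison 44.1% of 18193 genes were called this way, 18.5% higher and 25.5% lower in EC. Of 22 measured genes for AMPA receptor auxiliary and trafficking proteins, 5 were higher and 8 lower, with a median of -0.02 against -0.01 over all genes. Higher in EC were Gsg1l (1.43 ± 0.09), Shisa9 (0.81 ± 0.08), Cnih3 (0.67 ± 0.06) and Cacng4 (0.55 ± 0.08), which encode auxiliary subunits that alter gating or delivery. Lower in EC were Shisa6 (-2.88 ± 0.13), another auxiliary subunit, and Cnih2 (-1.71 ± 0.11), a cornichon that escorts AMPA receptors to the surface. Nptx1 (-1.03 ± 0.09), a pentraxin that clusters AMPA receptors, and Porcn (-0.59 ± 0.05), a membrane protein that binds AMPA receptors, were lower too. The cornichons Cnih3 and Cnih2 thus differed in opposite directions between the regions. Adarb1, an RNA editing enzyme of the Gria2 transcript, was lower by a small amount (-0.15 ± 0.05, adjusted p = 0.0304), named after its value was seen.

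Of 36 measured genes for postsynaptic scaffolds and signalling coupled to NMDA receptors, 7 were higher and 15 lower, with a median of -0.09. Camk2d was higher (2.62 ± 0.11) and Camk2b lower (-1.08 ± 0.05), both subunits of the calcium/calmodulin kinase that NMDA receptors activate. Lrrtm3 (1.49 ± 0.09), a synaptic adhesion protein, and the scaffolds Dlgap2 (0.95 ± 0.15) and Dlg1 (0.66 ± 0.04) were higher. Homer3 (-2.32 ± 0.07), a scaffold of group I metabotropic receptors, was lower, with Ptk2b (-1.12 ± 0.09), a kinase upstream of Src, and Actn2 (-0.91 ± 0.08), an actinin that binds NMDA receptor tails. Dlg4, which encodes PSD-95, gave -0.08 ± 0.08 and was not called.

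Of 10 measured genes for supply of glutamate and co-agonists, 3 were higher and 4 lower. Slc17a6, a vesicular glutamate transporter of many subcortical and some cortical neurons, was higher in EC (1.04 ± 0.15), and Slc17a7, its counterpart in most cortical and hippocampal excitatory neurons, was lower (-0.62 ± 0.16) and is also 1 of the 5 excitatory neuron markers. The uptake transporters Slc1a1 (-0.71 ± 0.03) and Slc1a2 (0.16 ± 0.04) were called in opposite directions, and Glul, the glutamine synthetase of astrocytes, gave 0.21 ± 0.07. Slc7a10 (-0.42 ± 0.06) and Slc6a9 (-0.25 ± 0.07), carriers of the co-agonists D-serine and glycine, were lower. Of the related receptor genes, Grid1 gave 0.17 ± 0.05, called higher, and Grin3b 0.11 ± 0.05, not called.

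Within a region, none of the 70 partner genes was called in limma in any of the 10 comparisons, nor in the 2 tests of a difference between effects. Of all 18193 genes 0%, 0.00550%, 0.0110%, 0.0165% or 0.0330% were called there, depending on the comparison. For BDNF against GFP, 0 of 70 in EC and 1 of 70 in HC passed an unadjusted p under 0.05. That 1 was Dlg2, the scaffold PSD-93, at 0.29 ± 0.12 in HC (adjusted p = 0.988). Shisa6 gave -0.53 ± 0.26 in EC, with an adjusted p of 0.997.

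The genes whose brightest probe set followed each member most closely over the 26 arrays were taken by Pearson's r, as a description, since the arrays fall into 2 regional clusters. Gria1 ran closest to Nr3c2, the mineralocorticoid receptor (r = 0.988), and to Tanc1 (0.985). Gria4 ran closest to Cbln1, a secreted synaptic organiser (0.976), and Deptor (0.975), and Grin3a to Grb10 (0.932) and Pde9a (0.912). For the members with little regional difference the closest values were lower: Gria2 with Ski (0.812), Grin2b with Nbea (0.747), Grin2c with Clic5 (0.765) and Grin2a with Dhdh (0.785). Gria3 ran closest to Hace1 (0.857) and Grin2d to Pnmal2 (0.866).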

How the data were processed

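Total RNA of dissected mouse EC and HC had been hybridised to 26 Affymetrix arrays. The authors deposited log2 values for 45101 probe sets, made with RMA (background correction, quantile normalisation and summary of probes) per the submitters' processing notes. The sources used here give no version of RMA. It fixes a common distribution and compresses differences of dim probe sets. The 64 control probe sets were left out. Symbols came from the platform annotation, updated through a GRCm38.p6 gene table (34945 probe sets with 1 symbol). Linear models (limma 3.58.1, R 4.3.3, lmFit and eBayes) were fitted per region (13 arrays, 4 groups), or to all 26 arrays (8 groups) for comparisons involving both regions, with Benjamini-Hochberg adjustment over 45037 probe sets and 2-sided tests. The 4-group average weights groups equally, and all nonTg weights arrays equally. If EC and HC came from the same animals, those tests treat them as independent. Errors are moderated SEs. Named genes were all members, the first 4 called genes per direction of each partner list by size (else the 2 smallest p), and the 2 closest patterns per member. Members, lists and tests were chosen with earlier results of these data known. The limma step was tested on simulated data. The number of arrays limits precision.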

Additional observations from a re-analysis of the deposited data

Results flagged for a closer look

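In groups of 4 arrays, 84 tests for a value far from the other 3 (Dixon's test) were run over the member probe sets, and 10 passed. The nominal rate is about 1 in 20, but the probe sets share arrays and genes, so the tests are not independent. The share flagged over all probe sets was not counted, so no excess particular to the members is shown. In EC APP BDNF, array 1 was low for the brightest Gria1 probe set (10.27, against 10.63 to 10.69 on the other 3) and high for 1453098_at of Gria2 (8.28, against 7.39 to 7.44). Array 3 of that group was low for 1421393_at of Grin2d (5.26, against 5.29 on the others), a gap that is wide only relative to a very small range. In EC APP GFP, array 3 was high for 1453098_at of Gria2 (7.85, against 7.54 to 7.59) and array 2 for the brightest Grin3a probe set (9.07, against 8.70 to 8.73).

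In HC APP BDNF, array 3 was high for 1420563_at of Gria3 (8.99, against 8.39 to 8.46) and array 4 low for 1458378_at of Grin3a (5.57, against 5.76 to 5.77). In HC APP GFP, array 1 was high for 1440891_at of Gria4 (5.84, against 5.39 on the others). Array 3 of that group was high for both Grin2d probe sets, the brightest at 7.37 (against 6.78 to 6.79) and 1421393_at at 5.62 (against 5.25 to 5.28).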

How the results depend on the processing

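Every setting gave 0 member probe sets called in the 10 within-region comparisons and the 2 tests of a difference between effects. In the regional comparisons, 11 were called over the 4 groups, 7 in APP BDNF, 10 in APP GFP, 5 in nonTg GFP and 9 in nonTg sham. With 1 probe set per gene and a filter at the 30th percentile together, the genes called of 9 were 6, 3, 4, 2 and 4, where over the 4 groups 4 of the same 9 probe sets were called among all 45037. With probe sets averaged per gene they were 6, 2, 5, 2 and 4, out of 9 genes in place of 21 probe sets. With the Gapdh 3′ to 5′ gap as a covariate, chosen after seeing the data, the counts were 6, 4, 5, 2 and 4 of 21. Region and RNA quality cannot be told apart in that fit. That covariate turned 1442370_at of Grin2b to -0.026 over the 4 groups and to -0.026 in APP GFP, and the cause was not tested. Leaving out each array gave 10 to 14, 5 to 8, 6 to 10, 2 to 6 and 8 to 10. The share of all probe sets called in the regional comparisons under these settings was not counted. Whether the member counts changed more or less than that share is therefore not known. Of 42 member results called, 40 kept their direction under every alternative and 18 stayed called under all of them. Of 315 not called, 9 were called under an alternative, among them Grin2c and the brightest Grin2d probe set over the 4 groups (adjusted p = 0.0427 and 0.0375 with a filter at the 50th percentile).

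Over all groups, replicate numbers did not show a pairing of the samples. Deviations of same-numbered arrays correlated above 0.1 in 3 of 13 pairs between regions, 4 of 16 within EC and 1 of 16 within HC. Among those 3 were both nonTg GFP pairs (0.41 each), which must give the same r because the group has 2 arrays a region. Xist was high on every nonTg array and cannot check pairs there, so pairing within the nonTg groups was not settled. With the number as a replicate block the counts were 11, 7, 10, 4 and 9, and the share of all probe sets called was not counted. The call lost was 1421351_at of Gria4 in nonTg GFP (0.78, adjusted p = 0.0900). This block joins same-numbered arrays of the regions, and 6 of 13 such pairs differed in Xist class. It therefore does not test a pairing by animal. A change of sign of a value that was called under neither setting was not counted as reversed. Dim probe sets (Grin2a, 2 of Grin2b) limit what can be seen of those genes.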
